A study of Mus musculus with 32 samples.

Results

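The genes described here present peptides at the cell surface on major histocompatibility complex (MHC) class I molecules. They are 10 genes, Tap1, Tap2, Tapbp, Psmb8, Psmb9, Psmb10, B2m, H2-K1, H2-D1 and Nlrc5, found by their RefSeq identifiers among the 22911 symbols so named on a mouse microarray with 45616 names in all, and each is read from its probe of highest mean log2 signal over 32 arrays. The arrays were one-colour Agilent arrays of tissue from mice that carried MCG 101, a transplantable sarcoma. The hosts lacked the prostaglandin E2 receptor EP2, which is encoded by Ptger2 and raises cyclic AMP, or were wild type. There were 4 groups of 8 arrays: tumor from EP2 knockout hosts, tumor from EP2 wild-type hosts, stroma from EP2 knockout hosts and stroma from EP2 wild-type hosts, each with 4 arrays labelled female and 4 labelled male. The labels place the deletion in the host and say nothing of the EP2 gene of the tumor cells.

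A class I molecule consists of a heavy chain, such as H2-K1 or H2-D1 in the mouse, the light chain beta-2-microglobulin (B2m) and a peptide. The proteasome cuts the peptides, the transporter formed by Tap1 and Tap2 moves them into the endoplasmic reticulum, and tapasin (Tapbp) helps to load them. Interferon gamma acts in part through Irf1 to raise these genes and to replace the constitutive catalytic subunits Psmb6, Psmb7 and Psmb5 by the immunoproteasome subunits Psmb9, Psmb10 and Psmb8, and Nlrc5 is a transactivator of class I promoters. Cytotoxic T cells recognise tumor cells by such peptides.

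The DNA upstream of 5 of the genes is shown because the levels of the genes moved together over arrays, as described further on, and because these windows hold most of the motif matches. RefSeq windows of 250 bases before the start site (GRCm38.p6) were at hand for 8 of the 10 genes. The Tap1 window lies at chr17:34187306-34187555 on the plus strand, and Psmb9 is read from the minus strand of the same 225 bases between the genes. The Psmb8 window is chr17:34197945-34198194 (plus strand), that of B2m chr2:122147437-122147686 (plus strand), that of H2-K1 chr17:34000334-34000583 (minus strand, for 1 of 2 annotated start sites) and that of H2-D1 chr17:35262844-35263093 (plus strand). Capitals mark matches on either strand to the core of the interferon-stimulated response element (GAAA, any 2 bases, GAAA), the gamma-activated site (TTCNNNGAA), a kB form (GGGNNTTCC), the X2-type core TGACG and the Y box CCAAT, and no 2 matches overlapped.
Tap1: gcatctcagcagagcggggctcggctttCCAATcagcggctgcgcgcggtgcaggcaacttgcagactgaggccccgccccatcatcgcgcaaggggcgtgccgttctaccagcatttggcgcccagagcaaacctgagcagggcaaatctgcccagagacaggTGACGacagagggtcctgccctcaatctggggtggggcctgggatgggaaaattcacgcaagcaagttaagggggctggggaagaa
Psmb8: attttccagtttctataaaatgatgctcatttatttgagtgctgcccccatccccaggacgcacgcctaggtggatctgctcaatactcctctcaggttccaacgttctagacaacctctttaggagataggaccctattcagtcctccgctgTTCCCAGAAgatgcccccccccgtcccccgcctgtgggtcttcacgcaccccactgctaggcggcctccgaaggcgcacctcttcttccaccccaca
B2m: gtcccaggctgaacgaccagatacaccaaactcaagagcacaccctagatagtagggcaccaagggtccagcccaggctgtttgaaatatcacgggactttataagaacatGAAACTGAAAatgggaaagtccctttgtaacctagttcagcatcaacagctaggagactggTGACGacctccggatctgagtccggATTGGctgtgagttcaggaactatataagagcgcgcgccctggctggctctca
H2-K1: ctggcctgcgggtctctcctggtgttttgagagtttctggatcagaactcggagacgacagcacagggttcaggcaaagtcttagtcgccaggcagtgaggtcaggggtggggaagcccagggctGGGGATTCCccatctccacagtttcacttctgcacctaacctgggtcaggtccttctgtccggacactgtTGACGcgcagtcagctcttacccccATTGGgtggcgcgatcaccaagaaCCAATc
H2-D1: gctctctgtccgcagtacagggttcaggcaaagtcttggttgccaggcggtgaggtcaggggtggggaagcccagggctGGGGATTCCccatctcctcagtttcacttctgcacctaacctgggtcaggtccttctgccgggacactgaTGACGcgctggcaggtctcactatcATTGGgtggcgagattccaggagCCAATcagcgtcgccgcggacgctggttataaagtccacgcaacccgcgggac
The response element core stood in the B2m window at -139 to -130 from the start site and in 2.98% of all 32851 RefSeq windows of this length. The Psmb8 window held a gamma-activated site match at -97 to -89 (7.02% of all windows). The kB form stood at -125 to -117 in H2-K1 and at -171 to -163 in H2-D1 (4.98% of all windows), and these windows were 88.7% identical over 203 aligned bases. Tap1, B2m, H2-K1 and H2-D1 each held both TGACG (17.8% of all windows) and CCAAT (33.8%). Of the windows not printed, that of Psmb10 held none of these 5 motifs and that of Tapbp held CCAAT alone, although both genes varied with the others over arrays. Looser forms of the motifs were not searched, so a window without a match is not shown to lack such an element. These matches describe the letters and show no binding.

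Some arrays stood apart. On the first principal component, with 59.8% of the variance over 16739 genes, 2 arrays labelled as stroma of wild-type hosts, 65 (-45.6) and 82 (-68.5), fell among the tumor arrays (-87.4 to -27.7), whereas the remaining 14 stroma arrays were between 3.45 and 145. The summed signal of 7 skeletal muscle markers was 1951 to 4469 times the array's 75th percentile in knockout stroma and 65.9 to 5092 times in wild-type stroma, so the stroma held muscle, most of all on wild-type stroma 9. On 5 arrays (knockout tumor 95 and 99, knockout stroma 95 and 99, and wild-type stroma 9) the Y-linked gene Ddx3y went against the sex label. The Ptger2 probe was not lower in the knockout (difference 1.06 ± 0.41 in tumor and 0.85 ± 0.37 in stroma, SE, log2 scale), and since its place relative to the deleted part is not known it checks no label. The 75th percentile signal ran from 402 to 1133, no spot was saturated, and the 10 genes were well above background on all 32 arrays. Nothing but the sample numbers says that arrays of a group came from separate animals, so p-values measure only the spread between these arrays, which may be technical.

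In tumors, all 10 genes had a higher mean in EP2 knockout than in wild-type hosts, by 0.18 to 0.88 on the log2 scale, and none passed the test. Levels are log2 signals relative to the array's 75th percentile, and differences are knockout minus wild type with the standard error (SE) from limma. To pass, a gene needed a p under 0.05 after Benjamini-Hochberg adjustment over all genes tested. The adjusted p was 0.977 for each of the 10 genes by limma. No gene of the table passed (0% of 23732), and 3.32% had an unadjusted p under 0.05, none of them among the 10. The median difference of the 10 genes was 0.54, and 50.7% of all tested genes lay above 0.

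**Figure D1:**
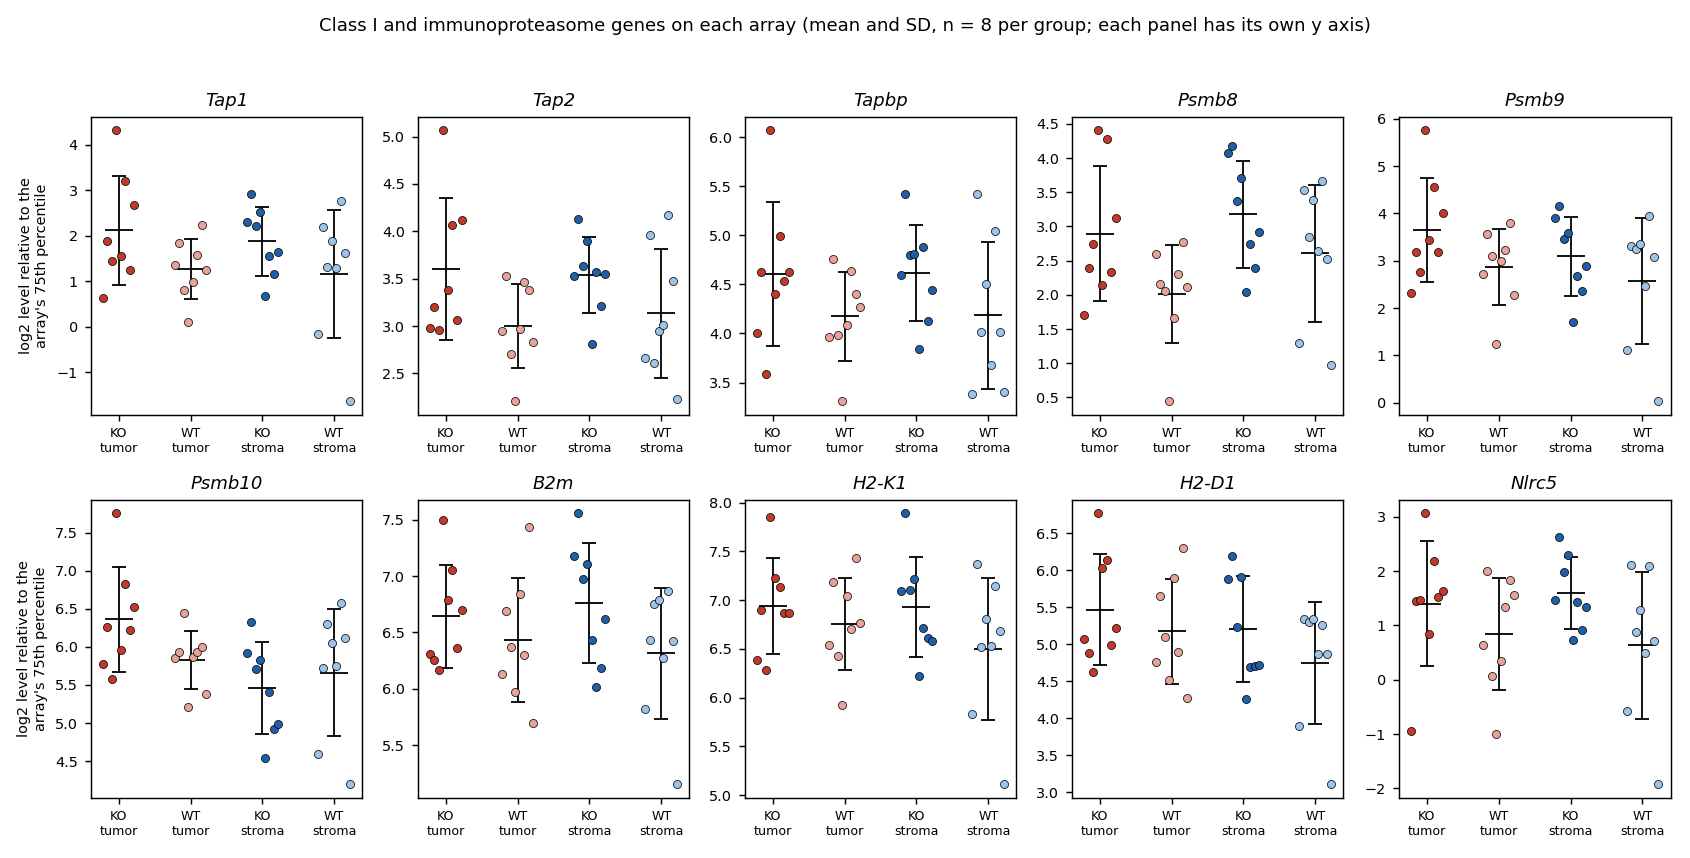
Log2 level relative to the array's 75th percentile (y axis, its own scale in each panel) of the 10 genes in knockout (KO) and wild-type (WT) tumor and stroma; points are arrays and bars the mean and SD (n = 8 per group). The groups overlap for every gene, and the highest tumor point in every panel is knockout tumor 51.

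The transporter genes were among those with the larger differences. Tap1 had 0.64 at the lowest, 1.72 at the median and 4.32 at the highest in knockout tumors, against 0.09, 1.30 and 2.24 in wild-type tumors. The difference was 0.85 ± 0.47 (95% interval -0.15 to 1.86), and the groups overlapped, with 6 of 8 knockout tumors above the wild-type median. Tap2, its partner chain, had 2.96, 3.29 and 5.07 in knockout tumors, against 2.21, 2.96 and 3.52 in wild-type tumors. All 8 knockout tumors lay above the wild-type median, the lowest of them barely, as they did for 2.57% of all tested genes, and the difference was 0.60 ± 0.31. Tapbp averaged 4.61 ± 0.73 in knockout and 4.18 ± 0.45 in wild-type tumors (SD, n = 8 each), a difference of 0.43 ± 0.29.

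Psmb8 had the largest difference of the 10 genes. Its level was 1.71 at the lowest, 2.57 at the median and 4.41 at the highest in knockout tumors, against 0.45, 2.14 and 2.78 in wild-type tumors, a difference of 0.88 ± 0.42 (95% interval -0.02 to 1.77). Of the 8 knockout tumors 7 lay above the wild-type median, and at least 7 did for 10.5% of all tested genes. Psmb9 averaged 3.65 ± 1.10 in knockout and 2.87 ± 0.81 in wild-type tumors (SD, n = 8 each), a difference of 0.79 ± 0.47. Psmb10 averaged 6.36 ± 0.69 in knockout and 5.83 ± 0.38 in wild-type tumors, a difference of 0.53 ± 0.28. The constitutive subunits that these replace differed by less, with 0.16 ± 0.19 for Psmb5, 0.10 ± 0.13 for Psmb6 and 0.18 ± 0.30 for Psmb7. All 14 genes of the constitutive core had a positive difference (median 0.17) and none passed.

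The class I chains had the smallest differences. B2m averaged 6.64 ± 0.46 in knockout and 6.43 ± 0.55 in wild-type tumors, H2-K1 6.94 ± 0.49 and 6.75 ± 0.47, and H2-D1 5.47 ± 0.75 and 5.18 ± 0.71 (SD, n = 8 each). The differences were 0.21 ± 0.25 for B2m, 0.18 ± 0.21 for H2-K1 and 0.29 ± 0.33 for H2-D1. H2-K1 and H2-D1 are related in sequence, so their probes may read each other's transcripts and those of related genes, which was not tested. Nlrc5 averaged 1.40 ± 1.15 in knockout and 0.85 ± 1.03 in wild-type tumors (SD, n = 8 each), a difference of 0.55 ± 0.48. The second probes of Tap1, Tapbp, H2-K1 and Nlrc5 also gave positive differences, of 1.64, 0.46, 0.36 and 0.29, and the second probe of Tap2 was too dim to be tested.

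The differences in tumor rested largely on few arrays. Knockout tumor 51 was the highest of the 16 tumors for all 10 genes, and knockout tumor 81 was among the 3 highest for 9. Wild-type tumor 5 was the lowest for 8 genes and wild-type tumor 9 for B2m and H2-D1. Wild-type tumor 5 also stood apart in its scan, with 483 outlier spots and 74.6% of probes well above background, against 58 to 175 spots and 47.7% to 62.5% on the other 31 arrays, and without it the median difference was 0.38. Without knockout tumors 51 and 81 the median difference was 0.19, with the largest at 0.40 (Psmb8) and H2-D1 at -0.04. Genotype and slide were not balanced. Knockout tumors 15, 51, 59B and 99 shared a slide that held no wild-type tumor. Wild-type tumors 5, 9 and 65 shared one with knockout tumor 12. Genotype and slide can thus not be fully told apart. On the 3 slides that held tumors of both genotypes, 10, 2 and 7 of the 10 genes were higher in the knockout, with median differences of 1.20, -0.15 and 0.15. When slide was fitted as a fixed block the median was 0.32 and Nlrc5 was at -0.11. In hosts labelled male B2m, H2-K1 and H2-D1 were at -0.10, -0.32 and -0.29, against 0.52, 0.69 and 0.87 in hosts labelled female. The difference between the sexes was not tested, and 2 of the 4 knockout tumors labelled male went against that label. The summed signal of 5 neutrophil markers was 280, 334 and 522 on wild-type tumors 9, 65 and 82, which are labelled male, against 54.4 to 106 on the other 13 tumors, and its part in these values was not tested.

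Markers of T cells and of cytotoxic cells were high on knockout tumor 51 too. The summed signal of 9 T cell markers was 4.47 to 19.1 in knockout tumors and 4.39 to 7.52 in wild-type tumors, and that of 10 markers of cytotoxic and NK cells was 1.36 to 33.0 in knockout tumors and 1.39 to 9.61 in wild-type tumors, with knockout tumor 51 the highest for both lists by summed signal. By mean log2 level the T cell markers were highest on knockout tumor 81 (0.64, against 0.59 on knockout tumor 51), and the summed signal of 6 B cell markers, 0.50 on knockout tumor 51, was highest on wild-type tumor 9 (1.44). Of the 9 markers tested in each list 8 were higher in knockout tumors and none passed. The summed signal of 8 macrophage markers was 35.8 to 137 in knockout tumors and 26.0 to 82.3 in wild-type tumors. Cd3e was well above background on all 16 tumor arrays, Cd8a on 9 and the NK cell receptor Ncr1 on 4. The part of these cells in the levels of the 10 genes was not tested, and in bulk tissue fewer cells of a type and less RNA per cell cannot be told apart.

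Inducers of class I and receptors of class I or its relatives were higher on average in knockout tumors without passing the test. Ifng, the gene of interferon gamma, had -4.89, -1.45 and 1.40 at the lowest, median and highest in knockout tumors, against -4.99, -2.88 and -2.22 in wild-type tumors. Its difference was 1.94 ± 0.75, with 7 of 8 knockout tumors above the wild-type median, and its probe was well above background on 7 knockout and 6 wild-type tumors. The interferon-responsive transcription factors Irf1 and Irf8 differed by 0.66 ± 0.31 and 1.06 ± 0.45. Cd8a, the coreceptor chain that binds class I, differed by 1.14 ± 0.49, and Klrk1, an activating receptor of cytotoxic cells, by 1.25 ± 0.59. The proteasome activator subunit Psme1 differed by 0.35 ± 0.20, the peptide-trimming enzyme Erap1 by 0.39 ± 0.24 and the class I relative H2-T24 by 0.50 ± 0.29. Knockout tumor 51 was the highest tumor for each gene named here except Irf8, for which knockout tumor 81 was. Without knockout tumor 51 the differences were 1.41 for Ifng, 0.43 for Irf1, 0.77 for Irf8, 0.77 for Cd8a and 0.84 for Klrk1. Those of Psme1 and Erap1 were then 0.22 and 0.24. Of the lists, all 6 partners in loading and trimming (median 0.17) and 9 of 11 class I relatives (0.33) had a positive difference. So did 7 of 10 transcriptional regulators (0.22) and 8 of 9 interferon ligands, receptors and kinases (0.09). All 5 receptors of class I or its relatives (0.95) did as well, and none of the genes on these lists passed.

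In stroma, 9 of the 10 genes had a higher mean in knockout than in wild-type hosts, Psmb10 had a lower one, and none passed the test. No gene of the table passed (0% of 24773), 28.2% had an unadjusted p under 0.05, and none of the 10 genes was among these. Without wild-type stroma 9 the number of genes passing was 8323 of 24542 tested, with 0 of the 10 among them. The median difference of the 10 genes was 0.45, and 54.5% of all tested genes lay above 0. The adjusted p of the 10 genes ran from 0.223 to 0.710 by limma.

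**Figure D2:**
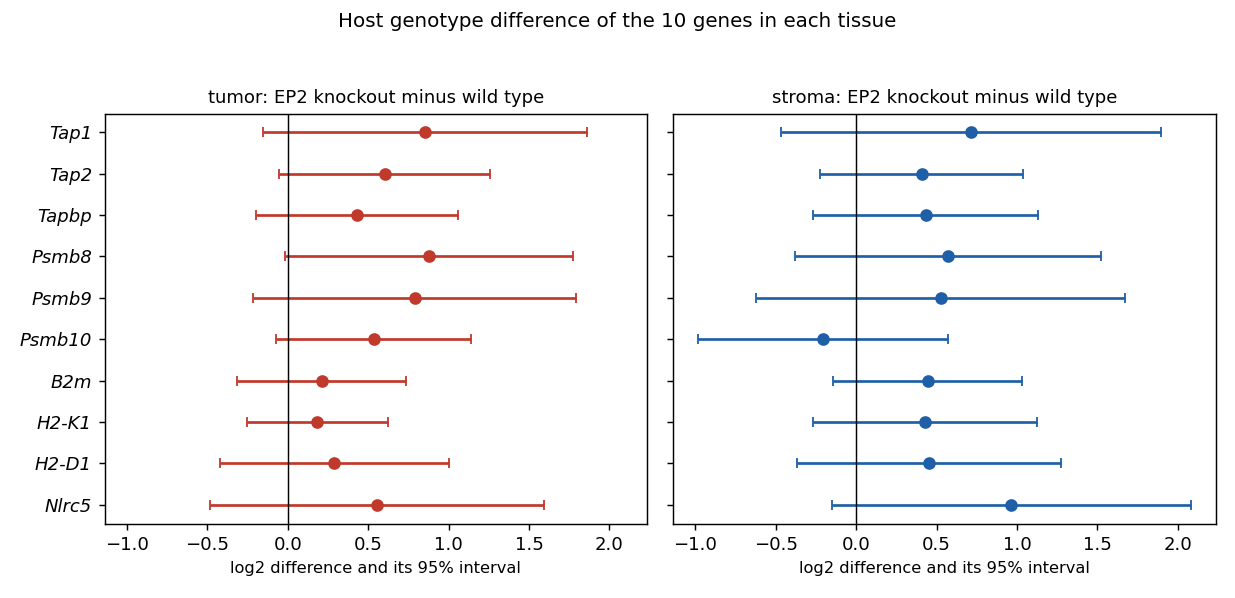
Log2 difference (x axis), EP2 knockout minus wild-type hosts, of the 10 genes in tumor (left) and stroma (right); points are estimates and bars their 95% intervals (16 arrays per tissue). Every interval includes 0, and Psmb10 in stroma (-0.21) is the only negative estimate.

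Nlrc5 had the largest difference in stroma. It had 0.73, 1.45 and 2.63 at the lowest, median and highest in knockout stroma, against -1.92, 0.79 and 2.12 in wild-type stroma, a difference of 0.97 ± 0.52 (95% interval -0.15 to 2.08). The groups overlapped, with 7 of 8 knockout arrays above the wild-type median. Tap1 had 0.67, 1.93 and 2.92 in knockout stroma, against -1.63, 1.47 and 2.76 in wild-type stroma (0.71 ± 0.55). Tap2 averaged 3.54 ± 0.40 in knockout stroma, against 3.14 ± 0.68 in wild-type stroma (0.41 ± 0.30), and Tapbp 4.62 ± 0.48, against 4.18 ± 0.75 (0.43 ± 0.33). Here and below each mean has its SD over 8 arrays and each difference its SE. At least 7 of 8 knockout arrays lay above the wild-type median for 3 of the 10 genes (Tap2, Tapbp and Nlrc5) and for 31.5% of all tested genes.

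The immunoproteasome subunits did not share a sign in stroma. Psmb8 had 2.05, 3.15 and 4.17 at the lowest, median and highest in knockout stroma, against 0.97, 2.75 and 3.67 in wild-type stroma (0.57 ± 0.45). For Psmb9 these were 1.72, 3.18 and 4.15 in knockout stroma, against 0.03, 3.17 and 3.95 in wild-type stroma (0.52 ± 0.54), so the medians were nearly equal and the lowest arrays were not. Psmb10 averaged 5.46 ± 0.60 in knockout stroma, against 5.66 ± 0.84 in wild-type stroma, and differed by -0.21 ± 0.37. Its sign turned under a fixed block for slide (0.10) and without wild-type stroma 65 and 82 (0.04). Of the class I chains, B2m averaged 6.76 ± 0.53 in knockout and 6.31 ± 0.58 in wild-type stroma (0.45 ± 0.28), H2-K1 6.93 ± 0.51 and 6.50 ± 0.72 (0.43 ± 0.33), and H2-D1 differed by 0.45 ± 0.38. The constitutive subunits had positive differences as well, of 0.44 ± 0.26 for Psmb5, 0.12 ± 0.23 for Psmb6 and 0.46 ± 0.34 for Psmb7.

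These differences too rested on few arrays. Wild-type stroma 9 was the lowest of 16 stroma arrays for 9 genes, and wild-type stroma 1 was the lowest for Tapbp and among the 3 lowest for all 10. Knockout stroma 15 was the highest for 7 genes. Wild-type stroma 9 was also the lowest of all stroma arrays in the summed signal of T cell markers (1.84). The same held for macrophage markers (22.4) and for cytotoxic and NK cell markers (0.34). Wild-type stroma 1 was next lowest, at 1.88, 46.5 and 0.85, against 3.41, 79.0 and 2.54 or more in knockout stroma. The part of these cells was not tested. The median difference of the 10 genes, 0.45 over all arrays, was 0.77 when slide was fitted as a fixed block, 0.60 once wild-type stroma 65 and 82 were dropped and 0.27 once wild-type stroma 9 was. With all 3 of these arrays dropped, a choice made after seeing the data, it was 0.01, with 6 above 0, B2m the largest at 0.26 and Psmb10 the lowest at -0.34. Psmb5 and Psmb7 were then at 0.83 and 1.08. On the 5 slides that held both genotypes 10, 6, 10, 10 and 4 of the 10 genes were higher in knockout stroma.

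Partners of the pathway gave no call between genotypes in stroma in the main fit. With arrays left out in turn some passed. The adjusted p by limma then ran from 0.0127 to 0.315 for Jak1, from 0.0199 to 0.263 for H2-T24 and from 0.0240 to 0.376 for Rfx5. All 11 class I relatives tested had a positive difference (median 0.51), and H2-T24 differed by 0.87 ± 0.30 (adjusted p = 0.123 by limma). Of 6 loading and trimming partners 1 was higher and the median was -0.26, with the chaperone calnexin (Canx) at -0.44 ± 0.23. The interferon receptor kinase Jak1 differed by 0.45 ± 0.19, Ifng by 0.28 ± 0.88 and Psme1 by 0.02 ± 0.21. Rfx5, a subunit of the factor that binds the X box of MHC promoters, differed by -0.62 ± 0.31. Without wild-type stroma 9, 65 and 82, Ifng was at -0.35 and Rfx5 at 0.10.

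The genotype differences in tumor and in stroma were not shown to differ. The difference in tumor less that in stroma ran from -0.41 ± 0.74 for Nlrc5 to 0.74 ± 0.48 for Psmb10. None of the 10 genes passed, with adjusted p from 0.360 to 0.998 by limma, nor did any gene of the table (0% of 27096), of which 21.1% had an unadjusted p under 0.05. Without wild-type stroma 9, 5275 of 26955 genes tested passed and 0 of the 10.

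Between the tissues no call was made among the 10 genes, which does not show that their levels were equal. Tumor minus stroma, 0 of the 10 genes passed the test, against 62.8% of 27096 genes (37.1% higher and 25.7% lower in tumor). Their median difference was 0.07 and that of all genes 0.14. Psmb10 came nearest to the threshold, with 6.09 ± 0.60 in tumor and 5.56 ± 0.71 in stroma (SD, n = 16 each), a difference of 0.53 ± 0.24 (adjusted p = 0.0521 by limma). It lay above the stroma median on 13 of 16 tumor arrays. It passed in 5 of 16 alternatives: with the shared array number as a replicate block (0.54, adjusted p = 0.0386 by limma), with the filter on all arrays, with sex left out, without wild-type tumor 5, and without wild-type stroma 65 and 82 (0.66, adjusted p = 0.0236 by limma). Over all 16 its adjusted p ran from 0.0236 to 0.345 by limma, and without knockout tumor 51 and 81 Psmb8 passed, at -0.68 (adjusted p = 0.0459 by limma). Psmb9 differed by 0.43 ± 0.37, H2-D1 by 0.35 ± 0.26 and Psmb8 by -0.44 ± 0.32, so the 3 immunoproteasome subunits did not share a sign. The SE of the 10 genes was 0.19 to 0.38, against a median of 0.22 over all genes.

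**Figure D3:**
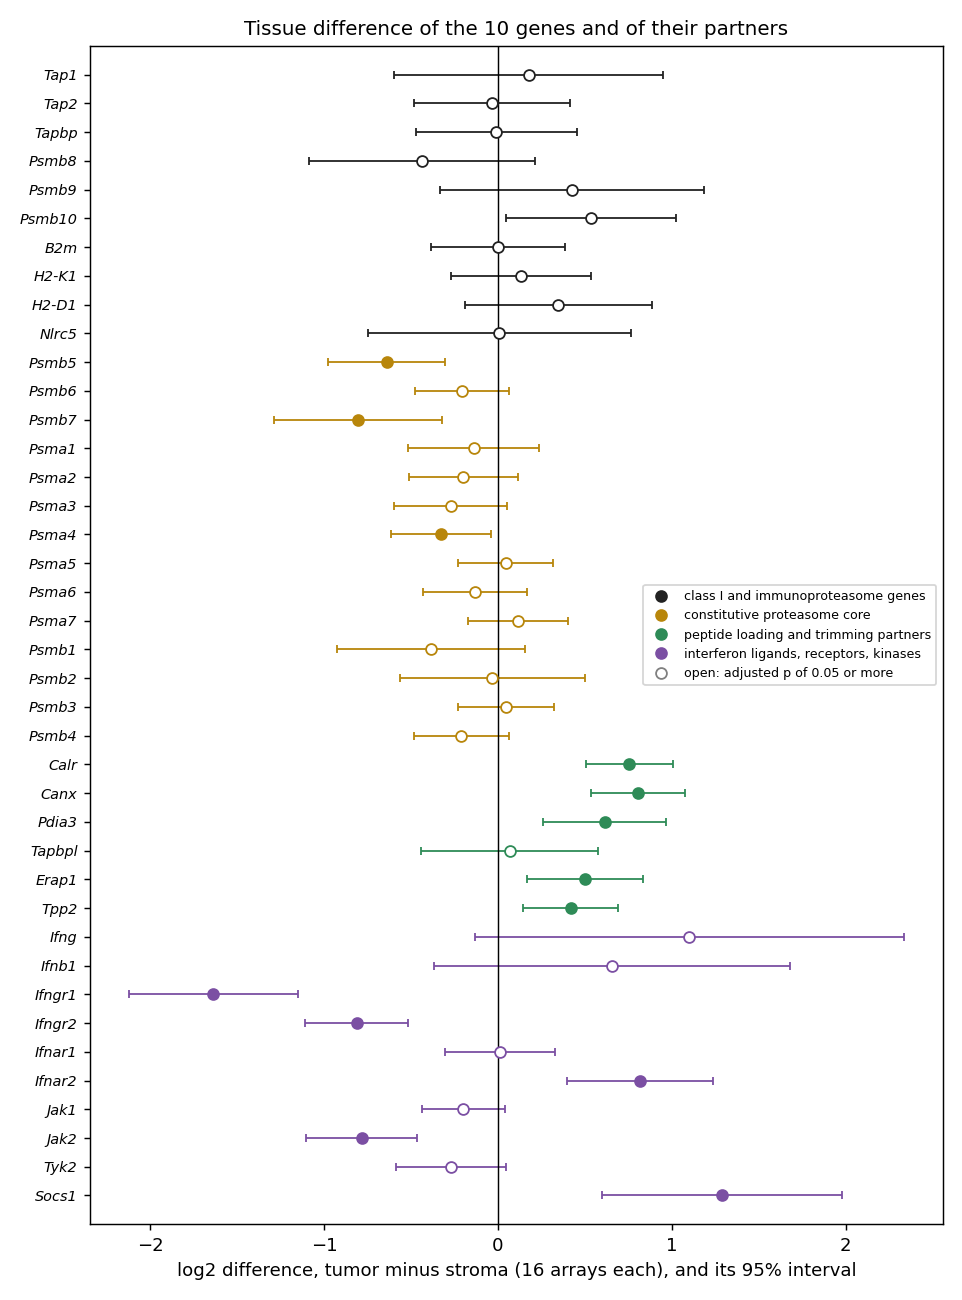
Log2 difference (x axis), tumor minus stroma with 16 arrays each, of the 10 genes and of genes on 3 partner lists; bars are 95% intervals, filled points passed the test and open points did not. None of the 10 genes is filled, while 5 of 6 loading and trimming partners are filled and lie to the right of 0, and Ifngr1 lies farthest to the left.

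Single genes of other parts of the pathway were called between the tissues, as were 62.8% of all genes, and the counts below stand beside 37.1% of all genes called higher and 25.7% called lower. The chaperones calreticulin (Calr), calnexin (Canx) and the oxidoreductase Pdia3, which fold class I chains, rose in tumor by 0.76 ± 0.12, 0.81 ± 0.13 and 0.61 ± 0.17. With Erap1 and Tpp2, which trim peptides, 5 of the 6 loading and trimming partners were called higher, also without wild-type stroma 65 and 82. Of the 14 genes of the constitutive core 3 were called lower, a share under that of all genes, with Psmb5 at -0.64 ± 0.16 and Psmb7 at -0.80 ± 0.24, and without wild-type stroma 9, 65 and 82 the count was 1 lower and 1 higher. Psme1 rose by 0.45 ± 0.14, and Psme4, another activator, was lower by -0.80 ± 0.21. Of the 10 interferon ligands, receptors and kinases, the receptor chains Ifngr1 (-1.64 ± 0.24) and Ifngr2 (-0.81 ± 0.14) and the kinase Jak2 (-0.78 ± 0.16) were lower in tumor. The receptor chain Ifnar2 (0.82 ± 0.20) and the feedback inhibitor Socs1 (1.29 ± 0.34) were higher. Ifng differed by 1.10 ± 0.60 and did not pass (adjusted p = 0.113 by limma).

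Of 10 transcriptional regulators 7 were called, a share near that of all genes (62.8%). There 5 were called higher in tumor, namely Rela (0.45 ± 0.07), Nfkb1 (0.60 ± 0.14), Creb1 (0.49 ± 0.14), Irf1 (0.69 ± 0.25) and Rfx5 (0.70 ± 0.20). The 2 called lower were Irf8 (-1.06 ± 0.30), a factor of myeloid cells, and Ciita (-1.55 ± 0.53), the class II transactivator. Among 11 class I relatives H2-M3 was higher (0.65 ± 0.24) and H2-T24 lower (-0.85 ± 0.21). Of 5 receptors of class I or its relatives Pirb, an inhibitory receptor of myeloid cells, was lower (-1.38 ± 0.36). Macrophage markers were called lower in tumor for 7 of 8 genes, and skeletal muscle markers for 7 of 7. The part of these cells in the tissue differences was not tested.

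Within each tissue the 10 genes varied together from array to array. Deviations from each genotype and sex mean were correlated over 16 arrays that share tissue make-up and slides, so the values are a description. The 45 pairs of genes had a median Pearson r of 0.82 in tumor, from 0.43 (H2-D1 with Nlrc5) to 0.97 (B2m with H2-D1). In stroma the median was 0.90, from 0.70 (Tapbp with B2m) to 0.98 (Tap1 with Psmb9). Tap1 and Psmb9, which share upstream DNA, had 0.93 in tumor, under Tap1 with Tap2 (0.95). The part of the shared DNA was not tested. Without the 2 arrays farthest from the median of the genes' mean, the medians were 0.74 in tumor (without knockout tumor 51 and 12) and 0.86 in stroma (without wild-type stroma 9 and 1). The range over the 16 tumor arrays was widest for Psmb9 (4.51), Tap1 (4.23), Nlrc5 (4.07) and Psmb8 (3.96) and narrowest for B2m (1.81) and H2-K1 (1.92), on the log2 scale.

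**Figure D4:**
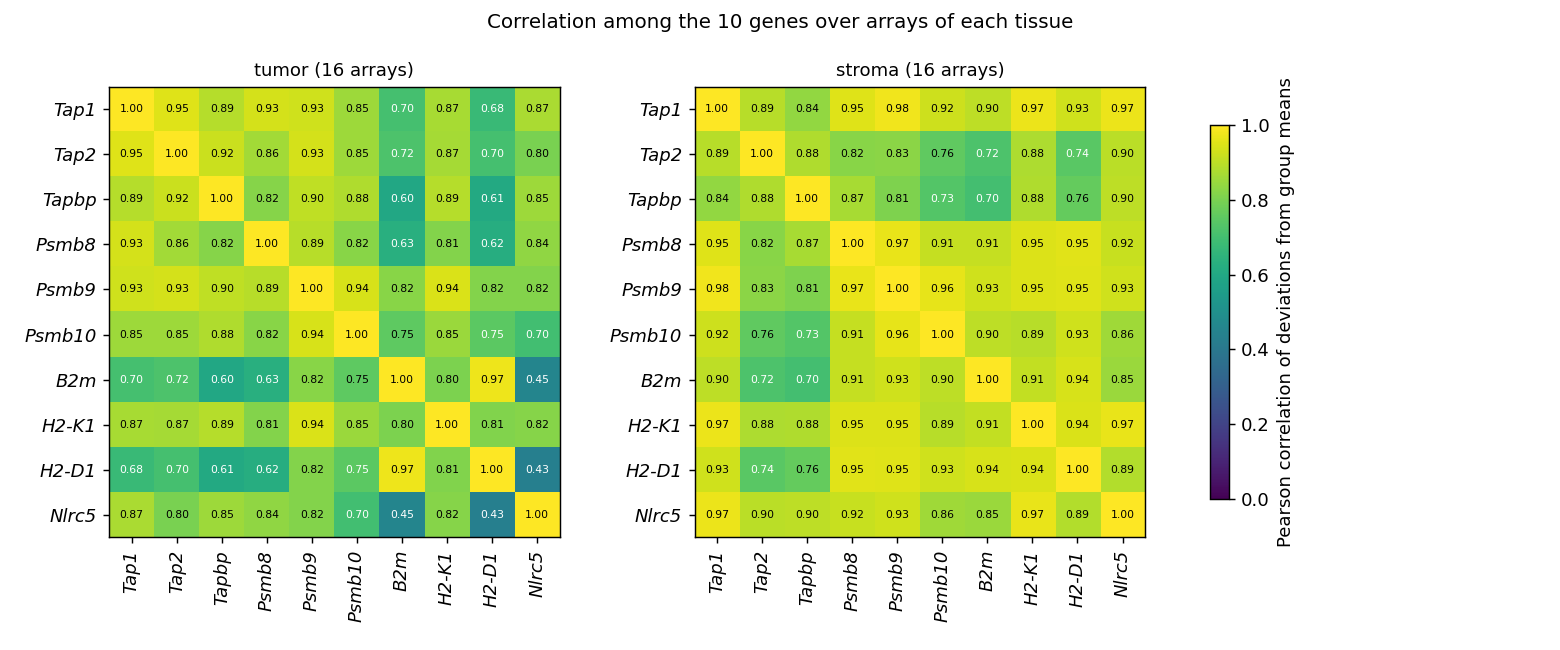
Pearson correlation of deviations from group means between each pair of the 10 genes over 16 tumor arrays (left) and 16 stroma arrays (right). In tumor B2m and H2-D1 correlate with each other at 0.97 and with Nlrc5 at 0.45 and 0.43, while in stroma no pair is under 0.70.

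In tumor B2m and H2-D1 formed the most distinct pair. They followed Nlrc5 least, and without knockout tumor 51 and 12 the correlation of H2-D1 with Nlrc5 was 0.10 (rho 0.18). In stroma the same pair had r of 0.89 (rho 0.78) over all 16 arrays. The genes outside the 10 that followed their mean most closely in tumor were Igtp (r = 0.94), Gbp2 (0.93), H2-T22 (0.92), Gbp3 (0.92), Irf1 (0.92), Ccl1 (0.92), Gsdmd (0.91) and Gbp10 (0.91), of 14329 genes with a 95th percentile of 0.49. In stroma they included Ly6e (0.98), Idnk (0.98), H2-K2 (0.98), Klrg1 (0.98), H2-DMb1 (0.97), H2-M3 (0.97) and H2-Q7 (0.97), of 15090 genes with a 95th percentile of 0.84. Igtp and the Gbp genes encode interferon-induced GTPases.

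The constitutive catalytic subunits ran against the 10 genes in stroma. Over the 16 stroma arrays Psmb5, Psmb6 and Psmb7 had r of -0.90, -0.91 and -0.91 with the mean of the 10 genes (rho -0.94, -0.93 and -0.96), and -0.86, -0.89 and -0.88 without wild-type stroma 9 and 1. On wild-type stroma 9 the 10 genes deviated by -1.92 SD units and Psmb7 by 1.55 on the log2 scale, and on knockout stroma 15 by 1.30 SD units and -0.84. In tumor the same subunits had r of 0.32, 0.19 and 0.38 (rho 0.41, 0.18 and 0.47). The whole list of 14 core genes had r of -0.89 in stroma and 0.31 in tumor. In stroma the values of all genes were widely spread (median -0.12 and 95th percentile 0.84 over 15090 genes). The share of genes with such negative values was not computed, so these values are not shown to be particular to the proteasome. The mean of the skeletal muscle markers had r of -0.48 (rho -0.51) with the 10 genes in stroma. Without wild-type stroma 9 this r was -0.09 (rho -0.32). The part of muscle in the relation was not tested.

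**Figure D5:**
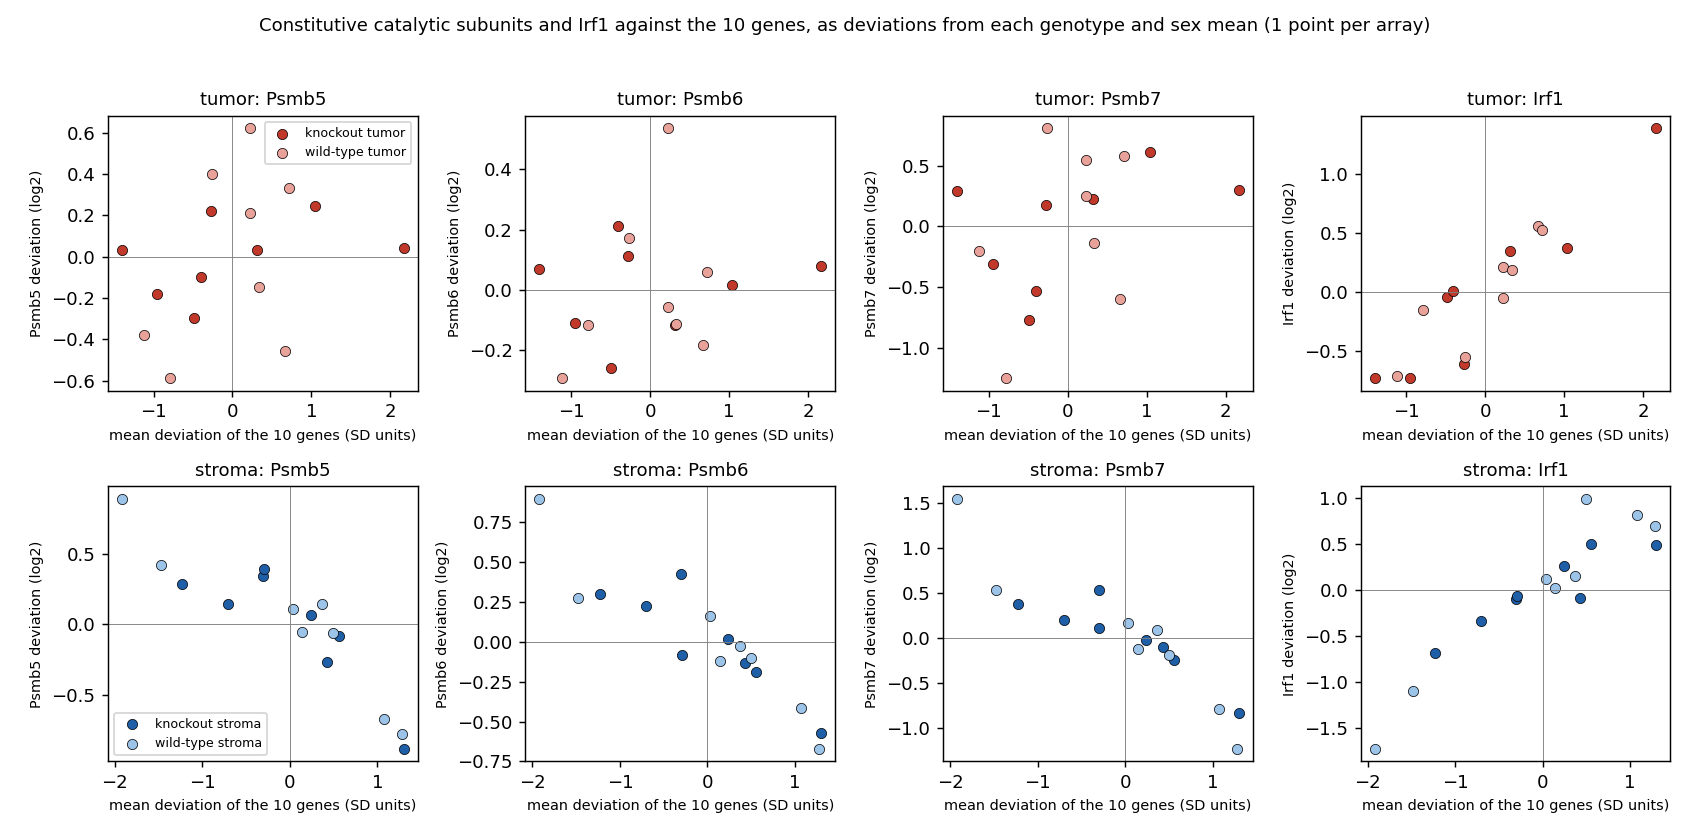
Deviation of Psmb5, Psmb6, Psmb7 and Irf1 from each genotype and sex mean (y axis, log2) against the mean deviation of the 10 genes (x axis, SD units), with 1 point per tumor array (top) and per stroma array (bottom). In stroma the constitutive subunits fall along a descending line (r from -0.90 to -0.91) and Irf1 along a rising one (0.93), while in tumor the constitutive subunits are scattered.

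Irf1, Ifng and Psme1 ran with the 10 genes in both tissues. For the list of interferon ligands, receptors and kinases the values depended on the arrays used. Irf1 had r of 0.92 in tumor and 0.93 in stroma, Ifng 0.90 and 0.92, and Psme1 0.84 and 0.88. Without the 2 farthest arrays of each tissue these became 0.84 and 0.86 for Irf1, 0.80 and 0.83 for Ifng, and 0.73 and 0.80 for Psme1. The mean of the interferon ligands, receptors and kinases had r of 0.79 (rho 0.66) in tumor and 0.20 (rho 0.32) in stroma. Without the 2 farthest arrays its r was 0.77 in tumor and 0.50 in stroma. Since the values of all genes were widely spread in stroma, as given above, high values there are not shown to be particular to these genes. The mean of the cytotoxic and NK cell markers had r of 0.89 in tumor and 0.94 in stroma, and that of the T cell markers 0.72 and 0.93. The value for T cells in tumor was 0.42 without knockout tumor 51 and 12. Macrophage markers had r of 0.55 in tumor and 0.84 in stroma, and fibroblast markers 0.07 and 0.79. Rfx5 had r of 0.30 in tumor and -0.48 in stroma. These are among 30 relations computed per tissue.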

How the data were processed

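Cy3-labelled cRNA made from 200 ng of total RNA (RNA integrity number above 7) was hybridised to one-colour arrays, per the labels' protocols. The authors deposited scanner output with the spot intensity (gProcessedSignal), from Feature Extraction version 10.7.3.1 according to the file headers, and processed log2 values. Those deposited log2 values lay within 0.01 of the scaled scanner values, centred on the gene's median in each tissue, for 98.7% (tumor) and 99.5% (stroma) of them. Their column medians over 56745 rows ran from -0.315 to 0.563. They served as an alternative within tissues.

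Control and outlier spots were left out, spots of a probe were averaged, and each array's log2 intensity was scaled to its own 75th percentile. Of 56605 probes 32994 had a RefSeq name. Genes that cleared background well on 8 or more of a fit's arrays, with at most 2 missing values, were tested with limma 3.58.1 (R 4.3.3, statmod 1.5.0 and version 1.17.8 of data.table), with a mean for each group and sex and Benjamini-Hochberg adjustment. The fits were tested on simulated data. Figures and sequence searches used Python 3.11.15, numpy 2.4.6, pandas 2.3.3, matplotlib 3.10.9 and Biopython 1.88. The number of arrays limits the precision. The normexp alternative used the median signal, since the files used here have no mean signal.

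Named were the 10 genes, Psmb5, Psmb6, Psmb7, Psme1, Irf1, Rfx5 and Ifng, up to 3 genes of smallest p per list, direction and comparison, the 8 genes most like the 10 in each tissue, and the label checks. Some of the genes most like the 10 once arrays were left out were named too. Psme2 was not analysed here, and 1 gene of these lists is not reported here. The genes, lists and tests were chosen with earlier results of these data known. Tumor and stroma arrays of the same number (15 pairs) did not deviate together throughout (r from -0.09 to 0.55, 8 over 0.1). The numbers were not used as pairs in the main fits, although such values cannot show that the arrays came from separate animals. Knockout 95 and 99 went against their sex label in both tissues, and wild-type 9 in stroma alone. With the number as a replicate block Psmb10 passed between tissues, as given above. There were 6 slides and 2 scan days.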

Additional observations from a re-analysis of the deposited data

How the results depend on the processing

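Between genotypes in tumor, 0 genes passed under every alternative run, with each array left out in turn included, and 7 to 10 of the 10 genes stayed above 0. Values that changed sign there were Nlrc5 at -0.11 (slide as a fixed block), B2m at -0.10, H2-K1 at -0.32 and H2-D1 at -0.29 (male hosts alone), H2-D1 at -0.038 (without knockout tumor 51 and 81), and Psmb7, from -0.023 to 0.32 with arrays left out in turn. In stroma the count of genes called, otherwise 0, was 5509 of 24017 tested without arrays against their sex label. It was 4337 of 27096 with all 32 arrays in one fit and 1 without wild-type stroma 9, 65 and 82. With arrays left out in turn it ran from 0 to 8323, the highest (of 24542 tested) without wild-type stroma 9. None of the 10 genes was called in any of these. Sign changes in stroma were Ifng at -0.047 (normexp correction and quantile scaling), Psmb10 at 0.10 and Psmb6 at -0.070 (slide as a fixed block), Psme1 at -0.12 (female hosts alone), Psmb10 at 0.038 (wild-type stroma 65 and 82 dropped), and, with stroma 9 of the wild type dropped too, Tapbp at -0.21, Psmb9 at -0.016, H2-K1 at -0.044, Psme1 at -0.10, Ifng at -0.35 and Rfx5 at 0.10. With arrays left out in turn Psme1 ran from -0.081 to 0.086 and Ifng from -0.28 to 0.63. Between tissues 10906 genes were called with the filter on all arrays, and 16446 to 17269 with arrays left out in turn. The number of the 10 genes called was 1 with that filter, with sex left out, when wild-type stroma 65 and 82 were dropped and once wild-type tumor 5 was removed (Psmb10 each time, at 0.53 to 0.66), 1 without knockout tumor 51 and 81 (Psmb8 at -0.68), and 0 to 1 with arrays left out in turn. The number above 0 was 3 without arrays against their sex label, 3 when wild-type stroma 9, 65 and 82 were left out, and 4 to 9 with arrays left out in turn. For the genotype difference between tissues 2129 of 26491 genes tested were called without arrays against their sex label. The count was 0 to 5275 with arrays left out in turn, the highest (of 26955 tested) without wild-type stroma 9. There 1 of the 10 genes was above 0 with slide as a fixed block, 1 without knockout tumor 51 and 81, and 2 to 7 with arrays left out in turn. With the shared number of tumor and stroma arrays as a replicate block (correlation 0.11) 1 of the 10 genes was called between tissues, Psmb10 at 0.54 (adjusted p = 0.0386 by limma). The causes of these changes were not tested. The setting without wild-type stroma 9, 65 and 82 and the percentile over all spots were chosen after seeing the data.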
